A study of Homo sapiens with 44 samples.

Results

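The genes described here are 7 ligands of the fibroblast growth factor (FGF) family, FGF2, FGF4, FGF8, FGF9, FGF10, FGF17 and FGF19, and 3 genes that respond to FGF and damp its signal, SPRY2, SPRY4 and DUSP6. They were chosen by name, as secreted FGF ligands and feedback genes of the ERK pathway, with earlier results of these data known. Counts of called members beside shares of all genes are therefore descriptions. The genes were found by matching symbols to Ensembl identifiers in GENCODE release 29. These are 10 of the 60499 genes in the table, and all 10 were among the 22955 genes with enough counts to be tested.

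FGFs are secreted proteins that bind receptor tyrosine kinases on the cell surface together with heparan sulfate, and the activated receptor passes the signal through RAS, RAF and MEK to the kinase ERK. ERK then switches on its own brakes. Sprouty proteins such as SPRY2 and SPRY4 act on the pathway above ERK, and DUSP6 is a phosphatase that removes the activating phosphates from ERK itself, so the transcripts of all 3 are widely read as a sign of recent ERK activity. In the embryo FGF8, FGF4 and FGF17 are made in the primitive streak, where cells leave the epiblast to form mesoderm, and FGF8 and FGF10 are made in the heart-forming mesoderm, FGF10 being a known marker of the second heart field. FGF2 is a standard supplement of human pluripotent stem cell culture.

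The cells were H1, 1 established human embryonic stem cell line from WiCell, so every well has the same genotype. Pluripotent cells were kept on the laminin LN-521, and the wells of all other groups were coated with LN-521 together with LN-221. Day 0 wells were in Nutristem medium. Day 1 and day 3 wells were in a basal medium with insulin-free B27 and CHIR99021, which blocks the kinase GSK3 and so turns on Wnt signalling, added from day 0. Day 5 wells were in the same base with IWP2, an inhibitor of Wnt secretion added from day 3. Wells at days 7 and 9 had the insulin-free supplement alone, and wells at days 11, 14, 20, 30 and 90 had CTS B-27. RNA of 44 wells was sequenced, 5 each at days 5, 7, 9 and 11 (the series text gives 3 for day 11) and 3 in each other group. The labels do not say whether wells of a group came from separate cultures, so p-values measure the spread between wells.

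Each library held between 6937097 and 33497996 counts in total. A level of 3 counts, taken as the lowest level a library can show, corresponded to 0.0919 to 0.410 CPM (counts scaled to a common library size by the trimmed mean of M values), a limit that covers counting error only. Markers followed the labels: the summed level of 5 pluripotency markers was 7320 to 7370 CPM in pluripotent wells and 13 to 24.9 CPM at day 90. The sum of 5 primitive streak and mesoderm markers was 742 to 1210 CPM at day 1, and that of 5 cardiomyocyte markers was 28.9 to 45.6 CPM at day 1 and 14900 to 50500 CPM at day 90, when the streak markers TBXT and EOMES were not above 3 counts in any well. Wells of a day differed in how much RNA of endoderm and liver markers (SOX17, FOXA2, AFP, APOA1 and TTR) they held, most of all at day 11, where wells 1 and 2 stood apart with 4500 and 8580 CPM against 157 to 170 CPM in the other 3. The 3 shallowest libraries were day 20 well 2, day 14 well 2 and day 30 well 10, with 6937097, 8679274 and 11715791 counts. Libraries were spread over 5 sequencing lanes, and 45 of the 46 changes of members called below had the same sign within every lane that held both groups. The exception was DUSP6 from day 20 to day 30.

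The quasi-likelihood test of edgeR was fitted to the 22955 genes and applied to the 11 steps between neighbouring groups and to 2 longer comparisons. Calls needed an adjusted p (Benjamini-Hochberg, over all genes) under 0.05 together with a log2 fold change of 1 or more in either direction. Values in brackets after a level are the log2 fold change, its standard error (SE) where given, and the adjusted p. Each of the 10 members was called in at least 1 of the 11 steps, as were 34.8% of all genes tested. In all, 6 members (FGF4, FGF8, FGF9, FGF17, SPRY4 and DUSP6) were called in at least 3, as were 5.86% of all genes. DUSP6 was called in 7. The heat map of the changes shows where they fell. All values come from bulk wells, in which fewer cells of a type and less RNA per cell cannot be told apart.

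**Figure D1:**
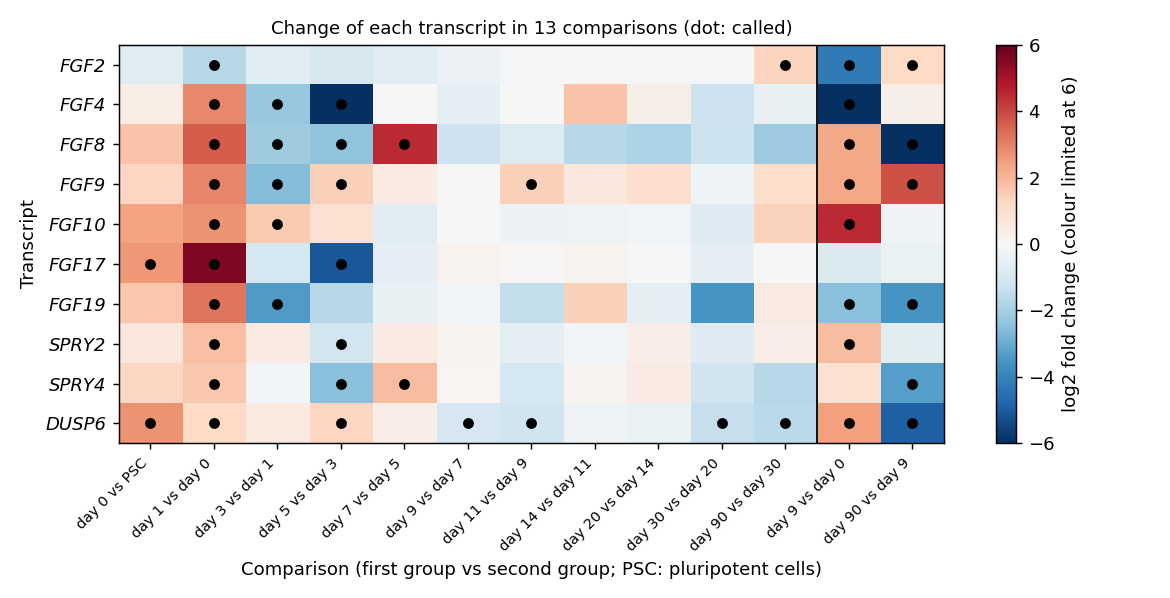
Log2 fold change of the 10 members in each of the 13 comparisons (colour scale in log2 units, from lower in the later group to higher), with a dot where the change was called. All 10 members carry a dot at day 1 against day 0 and none at day 14 against day 11 or day 20 against day 14.

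FGF2 (ENSG00000138685) lies on chromosome 4 from 122826708 to 122898236 on the plus strand (GRCh38, GENCODE 29), with the antisense gene NUDT6 overlapping it. It was the ligand of the pluripotent state. Its level was 329.5, 346 and 265 CPM in the 3 pluripotent wells, 202, 191 and 178 at day 0 and 61.1, 56.6 and 60.7 at day 1. These 3 groups did not overlap, and the level fell from day 0 to day 1 (log2 fold change -1.68 ± 0.226 (SE), adjusted p = 5.77e-07). Before that, day 0 lay 1.65-fold below the pluripotent wells, a difference with an adjusted p of 0.0443 that was short of the log2 fold change of 1 needed for a call.

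The decline went on in steps too small to be called. FGF2 stood at 42.9, 34.7 and 38.9 CPM at day 3, and at 23.3, 16.8, 16.3, 23.4 and 20.7 at day 5. The step to day 5 had an adjusted p of 0.000484 at a log2 fold change of -0.95, just under the size for a call. It crossed that line without day 3 well 2 (-1.01, adjusted p = 0.00197), day 5 well 1 (-1.01, adjusted p = 0.000596) or day 5 well 4 (-1.01, adjusted p = 0.000548). From day 7 to day 30 every well lay between 7.38 and 14.3 CPM. At day 9 FGF2 was 18.6-fold lower than at day 0 (log2 fold change -4.22 ± 0.205 (SE), adjusted p = 1e-18).

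At day 90 FGF2 was higher again, but unevenly, at 34.0, 11.8 and 25.3 CPM in wells 2, 4 and 5. The lowest of these lay above the day 30 wells (8.39 to 10.1 CPM) and inside the range of day 9 (8.83 to 12.3 CPM). FGF2 was called higher than at day 30 (log2 fold change 1.33 ± 0.231 (SE), adjusted p = 0.000221) and than at day 9 (log2 fold change 1.22 ± 0.198 (SE), adjusted p = 4.71e-06). Without day 90 well 2 neither reached the size for a call (0.99, adjusted p = 0.00935, against day 30, and 0.86, adjusted p = 0.00146, against day 9). In the deposited TPM (a level per unit of transcript length) the means were 0.99 at day 30 and 1.11 at day 90, and the median gene was 0.81 lower on the log2 TPM scale than on the count scale in that comparison. NUDT6 averaged 4.91 to 10.6 CPM over the groups, highest at day 90, and how reads were divided between the strands is not given in the sources used here.

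**Figure D2:**
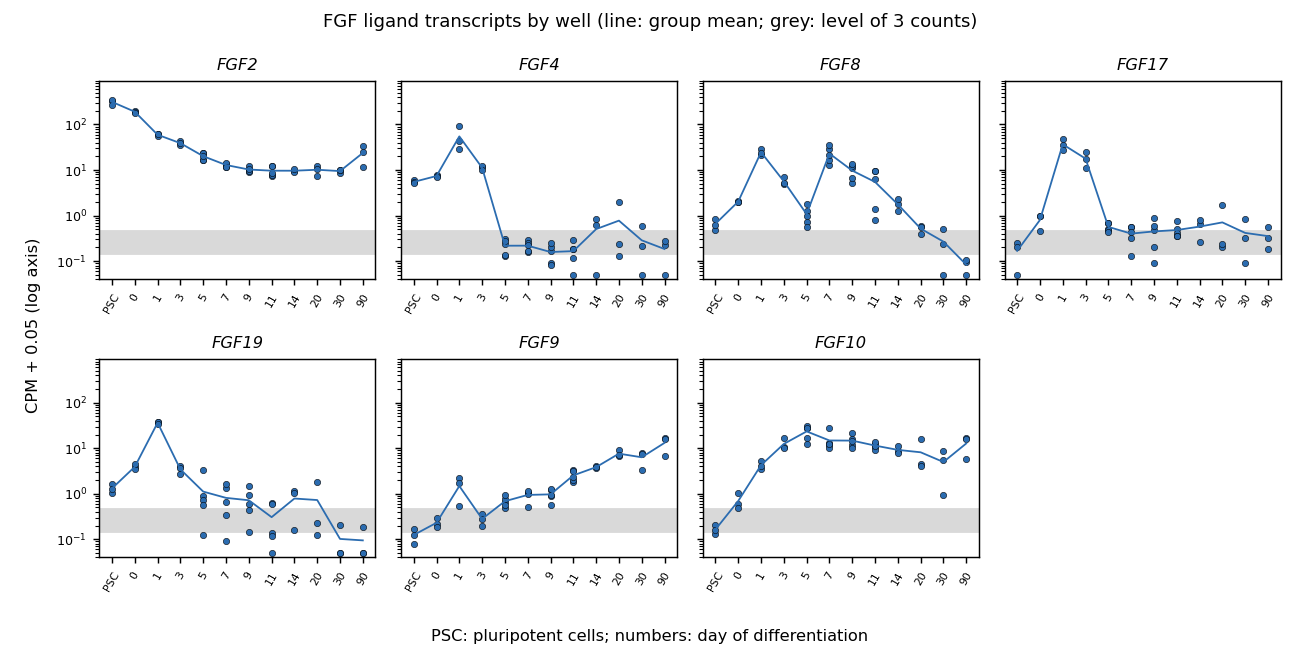
Level of each of the 7 ligands in every well (CPM + 0.05, logarithmic axis) by group, with a line through the group means and a grey band at the level of 3 counts. FGF2 steps down from the pluripotent state, FGF4, FGF17 and FGF19 peak at day 1, FGF8 peaks at days 1 and 7, and FGF9 and FGF10 are low at the start.

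From the pluripotent state to day 0 few members were called. Of the 10, 2 were called, against 2.91% of all genes (2.73% higher and 0.183% lower): FGF17 and DUSP6, both higher. Wells of the 2 groups did not overlap in any of the 10, as in 47.8% of all genes. DUSP6 went from 5.59, 5.08 and 4.67 CPM to 30.0, 33.3 and 35.8 (log2 fold change 2.69 ± 0.363 (SE), adjusted p = 9.11e-06). The groups were far apart. FGF17 held 5, 5 and 0 counts in the pluripotent wells, near the limit of detection, and 0.906, 0.932 and 0.414 CPM at day 0 (log2 fold change 2.62 ± 0.811 (SE), adjusted p = 0.0463). That call was lost when any 1 of pluripotent wells 1, 2 and 3 or day 0 wells 1, 2 and 3 was left out (log2 fold change 2.08 to 3.12, adjusted p 0.0587 to 0.179). FGF8, FGF10, FGF19, SPRY2 and SPRY4 also had higher means at day 0, at 1.69, 2.41, 1.62, 0.69 and 1.25 on the log2 scale, with adjusted p between 0.0542 and 0.305. FGF9 held 3, 1 and 2 counts in the pluripotent wells and 5, 4 and 7 at day 0, a pooled ratio of 2.55 (exact 95% counting interval 0.948 to 7.96, adjusted p = 0.254). When only these 2 groups were fitted, 6 members were called, DUSP6, FGF17, FGF8, FGF10, FGF19 and SPRY4.

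On the first day with CHIR99021 every member changed. At day 1 against day 0, all 10 were called, 9 higher and FGF2 lower, against 13.5% of all genes called (3.86% higher and 9.66% lower). The median log2 fold change of the members was 2.80, and that of all genes tested was -0.03.

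FGF17 and FGF8 belong to 1 subfamily of closely related ligands that act in the primitive streak and later in the brain. FGF17 (ENSG00000158815, chromosome 8, 22042398 to 22048809, plus strand) had the largest fold change of the members at this step. It read 0.906, 0.932 and 0.414 CPM at day 0 and 34.9, 47.2 and 27.8 at day 1, a 48.4-fold rise with no overlap (log2 fold change 5.60 ± 0.709 (SE), adjusted p = 1.92e-07). FGF8 (ENSG00000107831, chromosome 10, 101770130 to 101780369, minus strand) went from 1.98, 2.03 and 1.93 CPM to 21.2, 29.4 and 23.2, again without overlap (log2 fold change 3.63 ± 0.602 (SE), adjusted p = 2.16e-05).

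FGF4 and FGF19 lie near each other on chromosome 11, on the minus strand. FGF4 (ENSG00000075388, 69771016 to 69775403) is a ligand of pluripotent and early mesoderm cells, and FGF19 (ENSG00000162344, 69698232 to 69704642) is an endocrine ligand best known for control of bile acid synthesis in the liver. FGF4 rose from 7.85, 7.25 and 6.94 CPM to 43.5, 91.6 and 29.4 (log2 fold change 2.90 ± 0.616 (SE), adjusted p = 0.000592). Its day 1 wells were uneven, well 2 being far above wells 1 and 3, yet all were above day 0. FGF19 rose from 3.76, 3.39 and 4.45 CPM to 37.4, 37.9 and 33.5 (log2 fold change 3.23 ± 0.896 (SE), adjusted p = 0.0076), with even wells at both days.

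FGF9 (ENSG00000102678, chromosome 13, 21671383 to 21704498, plus strand) and FGF10 (ENSG00000070193, chromosome 5, 44303544 to 44389706, minus strand) were low at both days and rose by similar factors. FGF9, a ligand of many mesenchymal tissues and of the epicardium, read 0.168, 0.133 and 0.242 CPM at day 0, at 4 to 7 counts, and 2.16, 0.482 and 1.65 at day 1 (2.95 ± 0.485, adjusted p = 1.89e-05). FGF10, which signals from mesenchyme to epithelium in limb and lung, read 0.537, 0.432 and 0.967 CPM and then 3.47, 5.17 and 3.95 (2.70 ± 0.559, adjusted p = 0.000445). In both, every day 1 well lay above every day 0 well.

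The feedback genes had smaller fold changes than the 6 ligands that rose. SPRY2 went from 20.0, 18.8 and 20.0 to 72.5, 63.8 and 72.2 CPM (1.83 ± 0.351, adjusted p = 0.000178). SPRY4 went from 23.3, 22.0 and 26.4 to 74.0, 74.1 and 70.3 CPM (1.61 ± 0.567, adjusted p = 0.0374), and DUSP6 from 30.0, 33.3 and 35.8 to 81.7, 58.6 and 84.5 CPM (1.18 ± 0.339, adjusted p = 0.00972). In none of the 3 did the days overlap. That was so in all 10 members, and in 55.3% of all genes. The call of SPRY4 was lost with the sequencing lane as a term (1.54, adjusted p = 0.0646) and when any 1 well of the 2 days was left out (day 0 wells 1, 2 or 3, day 1 wells 1, 2 or 3), with adjusted p from 0.0579 to 0.0978 and log2 fold changes of 1.59 to 1.74.

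By day 3 the ligands had parted. Of the members, 5 were called against day 1, among 17.8% of all genes (11% higher and 6.8% lower): FGF4, FGF8, FGF9 and FGF19 lower and FGF10 higher. FGF19 dropped to 3.93, 2.68 and 3.55 CPM, which overlaps its day 0 range (-3.42 ± 0.906, adjusted p = 0.00365). FGF9 dropped to 0.318, 0.149 and 0.226 CPM, at 4 to 8 counts (-2.61 ± 0.477, adjusted p = 5.22e-05), and FGF8 to 4.81, 6.89 and 5.09 CPM (-2.14 ± 0.56, adjusted p = 0.00335). FGF4 dropped to 11.4, 11.9 and 10.2 CPM (-2.29 ± 0.601, adjusted p = 0.00329), a call that was lost without day 1 well 2 (-1.72, adjusted p = 0.0551). None of these 4 had overlapping wells at the pair of days. Among all members 9 had none, and among all genes 57%.

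FGF10 moved the other way, to 16.4, 10.8 and 9.96 CPM (1.56 ± 0.494, adjusted p = 0.0148). All 3 wells were above all day 1 wells. The call was lost without day 1 well 1 (1.42, adjusted p = 0.0782), day 1 well 3 (1.501, adjusted p = 0.0623) or day 3 well 1 (1.29, adjusted p = 0.0842). FGF17 stood at 11.3, 17.2 and 24.8 CPM (-1.04 ± 0.574, adjusted p = 0.179), below all day 1 wells without being called, and a fit limited to both days called it (-1.03, adjusted p = 0.00893). SPRY2 (99.2, 96.1 and 94.1 CPM) and DUSP6 (148, 89.3 and 104 CPM) had higher means than at day 1, without being called (0.47, adjusted p = 0.318, and 0.60, adjusted p = 0.184). SPRY4 lay at 49.3, 76.9 and 68.4 CPM and overlapped day 1 (-0.17, adjusted p = 0.861).

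At day 5, in IWP2, the streak ligands FGF4, FGF8 and FGF17 were lower than at day 3. Of the members, 7 were called against day 3, where 10.1% of all genes were (5.75% higher and 4.34% lower): FGF4, FGF8, FGF17, SPRY2 and SPRY4 lower, FGF9 and DUSP6 higher. The median change of the members was -1.39 on the log2 scale, beside -0.02 for all genes tested. FGF4 fell 64.3-fold, from 11.4, 11.9 and 10.2 CPM to 0.194, 0.0798, 0.257, 0.0869 and 0.223 CPM, which is 2 to 6 counts (-6.01 ± 0.643, adjusted p = 6.89e-09). FGF17 fell 34.2-fold, to 0.465, 0.439, 0.385, 0.652 and 0.632 CPM (-5.09 ± 0.573, adjusted p = 2.06e-08). FGF8 fell to 1.2, 0.678, 0.942, 0.522 and 1.78 CPM (-2.43 ± 0.505, adjusted p = 0.00054). In these 3 ligands no day 5 well reached the lowest day 3 well. Groups were apart in 7 members and in 34.3% of all genes.

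FGF4 and FGF17 did not come back: after day 5 FGF4 was at 0 to 14 counts per well and FGF17 at 1 to 25. FGF19 read 0.852, 0.678, 3.21, 0.522 and 0.0744 CPM at day 5, with well 3 above the others and inside the day 3 range, and was not called (-1.67, adjusted p = 0.136). Without that well it was called (-2.66, adjusted p = 0.0197). FGF9 rose from 0.318, 0.149 and 0.226 CPM to 0.426, 0.599, 0.728, 0.913 and 0.521 (1.44 ± 0.456, adjusted p = 0.0232), a small level of 11 to 21 counts, and was not called without day 3 well 2 (1.22, adjusted p = 0.135), day 3 well 3 (1.44, adjusted p = 0.0864) or day 5 well 4 (1.28, adjusted p = 0.0561). FGF10 had its highest group mean of the course, at 28.3, 16.8, 12.6, 31.2 and 28.0 CPM, an uneven group that overlapped day 3 (0.92, adjusted p = 0.158).

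The feedback genes parted at this step. SPRY4 fell from 49.3, 76.9 and 68.4 CPM to 12.5, 11.0, 6.55, 9.48 and 17.6 (-2.50 ± 0.49, adjusted p = 0.000284) and SPRY2 from 99.2, 96.1 and 94.1 to 49.1, 35.1, 39.5, 46.7 and 53.3 (-1.11 ± 0.298, adjusted p = 0.00715), neither with overlapping wells. DUSP6 went up, from 148, 89.3 and 104 CPM to 315, 265, 148, 398 and 265 (1.29 ± 0.313, adjusted p = 0.00283), with day 5 well 3 just under day 3 well 1 and all other day 5 wells above. The log2 ratio of DUSP6 to SPRY4 counts within a well (0.5 counts added to each) was 0.80 ± 0.705 at day 3 (SD, n = 3) and 4.61 ± 0.53 at day 5 (SD, n = 5), with no overlap between wells. DUSP6 to SPRY2 went from 0.20 ± 0.345 to 2.58 ± 0.477, also without overlap. Ratios within a well do not depend on library scaling, and they show unequal change only.

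At day 7, in medium without IWP2, FGF8 returned. It went from 1.2, 0.678, 0.942, 0.522 and 1.78 CPM at day 5 to 28.3, 13.04, 16.6, 21.6 and 35.3 at day 7, a 22.2-fold rise that separated the days completely (4.47 ± 0.494, adjusted p = 2.31e-08). SPRY4 rose with it, from 12.5, 11.0, 6.55, 9.48 and 17.6 to 52.1, 35.8, 34.6, 41.4 and 41.4 CPM (1.84 ± 0.447, adjusted p = 0.00646). These made 2 members called, among 3.65% of all genes (2.74% higher and 0.906% lower). The days did not overlap in 4 members, FGF2, FGF8, SPRY2 and SPRY4, and in 11.5% of all genes. FGF17, the close relative of FGF8, was not called (0.0819 to 0.517 CPM, -0.53, adjusted p = 0.742). SPRY2 read 57.0, 58.0, 55.6, 61.0 and 86.4 CPM (0.51, adjusted p = 0.344).

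DUSP6 had its highest group at day 7, with 515, 306, 278, 315 and 400.2 CPM (0.38, adjusted p = 0.518 against day 5). By day 9 it had fallen to 184, 154, 196, 190.2 and 178 CPM, and no day 9 well reached the lowest day 7 well (-1.01 ± 0.26, adjusted p = 0.0273). It was the 1 member called at that step, where 1.28% of all genes were (1.02% higher and 0.261% lower), and the 1 member whose days did not overlap, against 7.34% of all genes. Its size lay at the edge of the rule. Leaving out day 7 well 1 gave -0.85, adjusted p = 0.139. The call was also lost without day 7 well 10 (-0.97, adjusted p = 0.0578) or without day 9 wells 1, 2, 4 or 10 in turn (log2 fold change -1.03 to -0.96, adjusted p 0.053 to 0.0731). With RLE scaling, either other filter, a lane term, DESeq2 or a fit limited to both days it came to between -0.998 and -0.966, under the line by size alone.

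FGF8 at day 9 read 11.3, 5.25, 13.2, 6.57 and 12.1 CPM, with wells 2 and 4 low. Against day 7 it was 2.38-fold lower without being called (-1.25, adjusted p = 0.131). A fit limited to both days called it (-1.203, adjusted p = 0.0302). SPRY2 (60.9, 53.7, 68.9, 83.2 and 92.4 CPM) and SPRY4 (34.5, 20.4, 46.4, 80.9 and 39.6 CPM) were not called (0.17, adjusted p = 0.91, and 0.11, adjusted p = 0.975). In SPRY4, well 4 was highest and well 2 lowest.

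**Figure D3:**
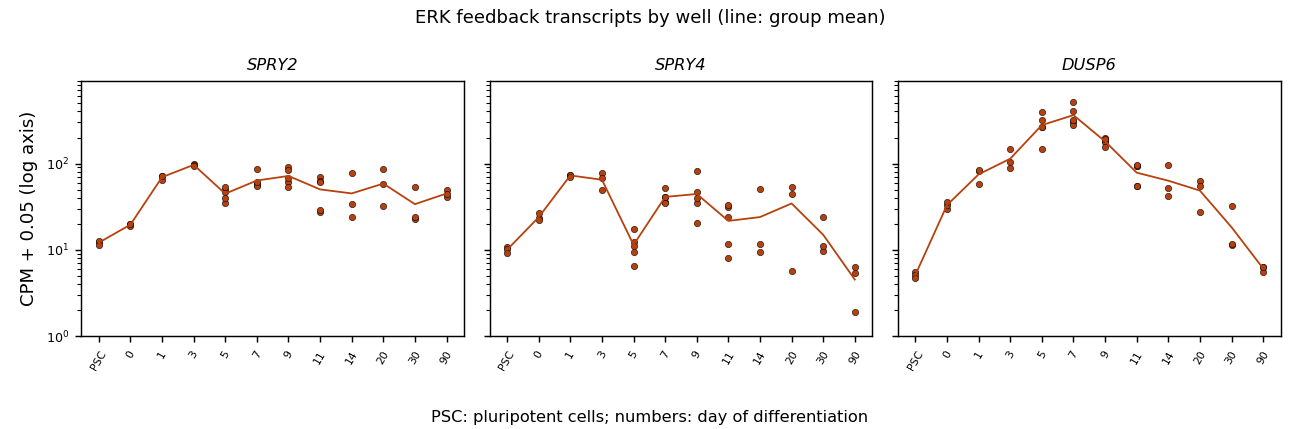
Level of SPRY2, SPRY4 and DUSP6 in every well (CPM + 0.05, logarithmic axis) by group, with a line through the group means. DUSP6 climbs to day 7 and falls to day 90, SPRY4 dips at day 5, and wells of days 11 to 30 are spread widely.

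SPRY2 (ENSG00000136158) lies on chromosome 13 from 80335976 to 80340951 and SPRY4 (ENSG00000187678) on chromosome 5 from 142310427 to 142326455, both on the minus strand, and SPRY4-AS1 runs across SPRY4 on the plus strand at no more than 0.436 CPM on average in any group. DUSP6 (ENSG00000139318) lies on chromosome 12 from 89347232 to 89353271 on the minus strand and is overlapped by AC024909.2, at no more than 1.22 CPM on average. Promoter sequence from RefSeq (GRCh38.p14) was at hand for 5 members, as windows from 250 bases before to 50 bases after a start site. The Sprouty promoters are shown because both Sprouty transcripts were called higher at day 1 and lower at day 5. Whether these letters have a part in the changes was not tested. Sequences run 5′ to 3′ on the gene's strand and cover only bases before the start site that no GENCODE 29 exon overlaps, with capitals for CCGGAA, the core bound by ETS factors (the transcription factors that ERK activates), and for TCAAAG, the reverse complement of CTTTGA, a core bound by the Wnt effectors TCF and LEF.
SPRY2, window 1, chr13:80341127-80341376, minus strand: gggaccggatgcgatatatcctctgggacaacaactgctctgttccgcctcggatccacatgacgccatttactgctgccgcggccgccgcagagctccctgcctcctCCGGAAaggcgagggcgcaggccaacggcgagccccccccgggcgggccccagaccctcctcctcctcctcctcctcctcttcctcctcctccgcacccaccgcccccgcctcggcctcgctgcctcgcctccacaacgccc
SPRY2, window 3, chr13:80339660-80339909, minus strand: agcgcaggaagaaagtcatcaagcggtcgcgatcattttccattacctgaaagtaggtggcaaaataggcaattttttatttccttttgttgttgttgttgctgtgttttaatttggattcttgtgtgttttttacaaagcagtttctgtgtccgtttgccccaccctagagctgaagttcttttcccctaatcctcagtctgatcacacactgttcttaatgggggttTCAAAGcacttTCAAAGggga
SPRY4, chr5:142324418-142324497, minus strand: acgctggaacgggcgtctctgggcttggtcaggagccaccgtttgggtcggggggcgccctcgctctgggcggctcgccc

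The stretch from SPRY2 window 1 held 1 CCGGAA, and that from window 3 held 2 TCAAAG close together before the start. In the whole of window 3, including the 50 bases after the start, CTTTGA was found 3 times on either strand. SPRY2 window 2, not printed, held neither, and the SPRY4 stretch held neither. Among 35116 RefSeq windows of 300 bases, 17.2% held CCGGAA and 12.9% held CTTTGA on either strand, so a match is common and is given as a description of these letters only. The AP-1 core TGACTCA, in 4.95% of windows, was in none of the windows of FGF2, FGF10, SPRY2, SPRY4 or DUSP6, which says only that these letters are not there.

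After day 9 few members were called from step to step. At day 11 against day 9, FGF9 was higher and DUSP6 lower, 2 members among 1.63% of all genes called (0.396% higher and 1.24% lower). FGF9 went from 1.14, 0.875, 1.22, 0.521 and 0.856 CPM to 3.24, 1.75, 1.96, 3.16 and 2.31 without overlap (1.43 ± 0.325, adjusted p = 0.00882). DUSP6 went from 184, 154, 196, 190.2 and 178 CPM to 54.9, 54.3, 94.8, 93.0 and 95.02, also without overlap (-1.201 ± 0.261, adjusted p = 0.00608). These were the 2 members without overlap, against 6.28% of all genes. Wells 1 and 2 of day 11, which held the most endoderm and liver marker RNA, were the lowest in DUSP6. Without both, DUSP6 came to -0.93, adjusted p = 0.0479, under the size for a call.

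At day 14 against day 11, 0 members were called by edgeR (0.697% of all genes were, 0.484% higher and 0.213% lower), with 1 member, FGF8, at an unadjusted p under 0.05, and DESeq2 called FGF8 alone. FGF8 read 1.71, 1.19 and 2.25 CPM at day 14 (-1.68, adjusted p = 0.103) and 1.34, 0.738, 9.50, 9.39 and 6.18 at day 11, where wells 1 and 2 were the lowest by far and lay in or below the day 14 range. Without these 2 wells the fall of FGF8 was called (-2.28, adjusted p = 0.000625), as it was without either one (-1.93, adjusted p = 0.0307, and -1.96, adjusted p = 0.0234). FGF4, at 0 to 9 counts in those wells, was called higher at day 14 without day 14 well 3 (2.49, adjusted p = 0.0498). The days did not overlap in 1 member, FGF9, and in 4.97% of all genes. At day 20 against day 14, 0 members were called by edgeR and 0 by DESeq2, among 0.0479% of all genes, all of those higher, and FGF8 and FGF9 made 2 at an unadjusted p under 0.05 (-1.89 and 0.99 on the log2 scale). The days did not overlap in those 2 members and in 4.84% of all genes.

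DUSP6 was the 1 member called at day 30 against day 20, among 2.02% of all genes (0.758% higher and 1.26% lower). It read 63.0, 55.4 and 27.4 CPM at day 20 and 11.3, 31.9 and 11.7 at day 30, where well 3 lay inside the day 20 range (-1.40 ± 0.345, adjusted p = 0.017). The call was lost without any 1 of day 20 well 1, day 20 well 2, day 30 well 1 and day 30 well 10 (log2 fold change -1.31 to -1.08, adjusted p 0.0524 to 0.128), and without the 3 shallow libraries (-1.07, adjusted p = 0.17). Within the 2 lanes that held both days, single wells differed by -2.28 and 0.22 on the log2 scale. No member had days that did not overlap, which 8.79% of all genes had. Among the alternatives run, SPRY2 was called lower at day 30 only without day 30 well 3 (-1.25, adjusted p = 0.0348).

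At day 90 against day 30, FGF2 (above) and DUSP6 were called, among 5.09% of all genes (2.65% higher and 2.44% lower). The days did not overlap in 3 members, FGF2, SPRY4 and DUSP6, and in 13.8% of all genes. DUSP6 ended at 6.37, 5.57 and 6.28 CPM, near its pluripotent level of 4.67 to 5.59 CPM and below all day 30 wells (-1.60 ± 0.358, adjusted p = 0.0039). Without day 30 well 3 the call was lost (-0.93, adjusted p = 0.128). FGF9 (16.5, 16.1 and 6.67 CPM), FGF10 (16.7, 15.6 and 5.77 CPM) and SPRY4 (6.23, 1.88 and 5.38 CPM) missed the call (1.06, adjusted p = 0.0869; 1.39, adjusted p = 0.0776; and -1.72, adjusted p = 0.0667). SPRY4 was called with all wells by DESeq2 (-1.70, adjusted p = 0.025), with no filter on low counts (-1.72, adjusted p = 0.0435) and by limma on log2(TPM + 0.1) (-2.42, adjusted p = 0.0188). FGF9 passed without day 90 well 5 (1.36, adjusted p = 0.0449), and FGF10 and SPRY4 without day 30 well 10 (2.02, adjusted p = 0.0153, and -1.86, adjusted p = 0.0471).

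Set side by side per transcript length, the 7 ligands took turns. Other FGF ligands were not part of this sum. TPM was used here to compare genes within a group, and values are mean shares of the summed TPM of the 7. FGF2 made 94% (range 93.2 to 94.8) of the sum in pluripotent wells and 80.6% (range 79.5 to 81.5) at day 0. At day 1 it made 10.3% (range 7.7 to 12), while FGF8 made 35.7%, FGF17 19.8%, FGF4 15.9% and FGF19 15.1%. At day 3 FGF17, FGF8, FGF10 and FGF2 stood at 27.9%, 22.1%, 19.6% and 17.2%, with well ranges that all overlapped. FGF10 led at day 5 with 67.5% (range 53.8 to 75.3), and FGF8 at day 7 with 72.4% (range 63.5 to 78.5).

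From day 9 on the mix moved from FGF8 towards FGF10, FGF9 and FGF2. FGF8 made 54.4% (range 38.6 to 64.1) at day 9, 37.5% (range 12.9 to 58.6) at day 11 and 20.7% (range 18.5 to 24.8) at day 14, then 6.45%, 4.29% and 0.234% at days 20, 30 and 90. At day 90 FGF10 made 46.1% (range 34.8 to 54.9), FGF9 26.6% (range 22.3 to 33) and FGF2 25.6% (range 11.5 to 39.9), with FGF2 overlapping both others. FGF18, which is not among the 7, had a higher mean CPM at day 90 than any of them, with uneven wells (below). The summed TPM of the 7 was highest at day 1, at 69 (55.4 to 85.8), against 24 (23.5 to 24.4) at day 0 and 4.39 to 4.99 on average at days 30 and 90. These sums were not tested between groups, and protein-coding genes held between 15.4 and 41.9% of the TPM of a library.

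**Figure D4:**
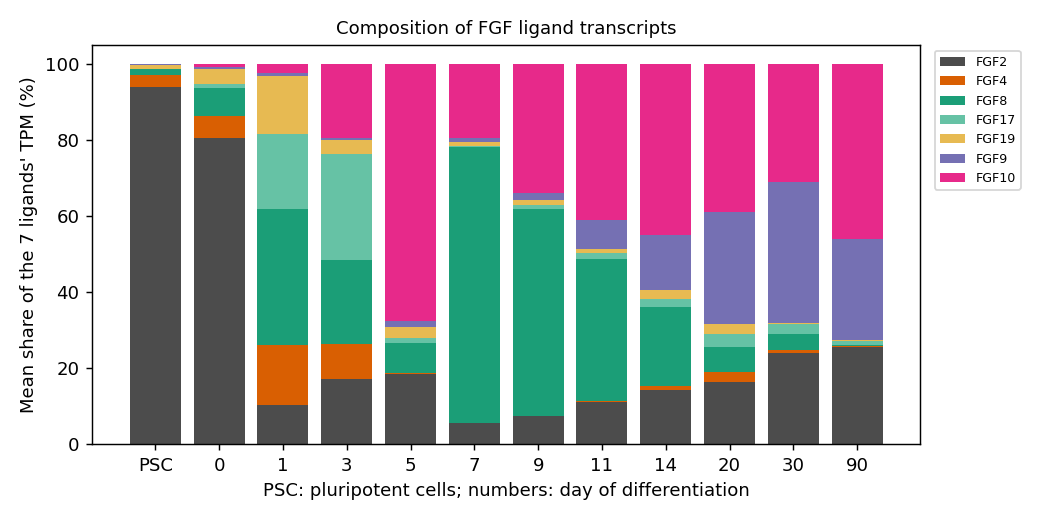
Mean share of each ligand in the summed TPM of the 7 ligands (stacked bars, percent) by group. Among these 7, the leading ligand is FGF2 in pluripotent and day 0 wells, FGF8 at day 1, FGF10 at day 5 and FGF8 again at days 7 and 9.

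Over the longer comparison of day 9 with day 0, 8 of the 10 members were called, among 31.7% of all genes (17.1% higher and 14.6% lower). FGF10 was 22.6-fold higher, at 11.6, 9.90, 14.7, 21.4 and 15.8 CPM against 0.537, 0.432 and 0.967 (4.50 ± 0.561, adjusted p = 2.19e-08). DUSP6 was 5.46-fold higher (2.45, adjusted p = 1.24e-07), SPRY2 3.66-fold (1.87, adjusted p = 1.19e-05), FGF8 4.87-fold (2.28, adjusted p = 0.000639) and FGF9 4.98-fold (2.32, adjusted p = 6.86e-05). FGF2, FGF4 and FGF19 were lower (-4.22, -5.997 and -2.51 on the log2 scale). In all 8 the wells of the pair of days did not overlap, and in no other member, against 56% of all genes. SPRY4 (0.89, adjusted p = 0.153) and FGF17 (-0.87, adjusted p = 0.24) were not called. Both days of this comparison also enter the steps above, so its values are no independent repeat of them.

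From day 9 to day 90, 6 members were called, among 23.9% of all genes (11.9% higher and 12% lower). FGF9 rose from 1.14, 0.875, 1.22, 0.521 and 0.856 CPM to 16.5, 16.1 and 6.67, a 14.2-fold change (3.82 ± 0.363, adjusted p = 8.93e-11). In TPM its mean was 0.226 at day 9, 1.51 at day 30 and 1.38 at day 90. By limma on log2(TPM + 1) the change from day 9 to day 90 was 0.91 (adjusted p = 0.000188), under the size for a call. With log2(TPM + 0.1) the call held. FGF8 was at 1, 0 and 1 counts at day 90 against 1273 in all at day 9, a pooled ratio of day 9 to day 90 of 256 (exact 95% counting interval 70.7 to 2116, adjusted p = 1.08e-08). DUSP6 fell 29.6-fold (-4.89 ± 0.387, adjusted p = 1.21e-12) and SPRY4 9.73-fold, to 6.23, 1.88 and 5.38 CPM (-3.28 ± 0.594, adjusted p = 2.58e-05). SPRY2 stood at 50.02, 41.0 and 43.9 CPM, below all day 9 wells (53.7 to 92.4 CPM) but not called (-0.67, adjusted p = 0.086). At day 90 the log2 ratio of SPRY2 to SPRY4 was 3.48 ± 0.816 and that of DUSP6 to SPRY2 -2.88 ± 0.0852 (SD, n = 3), against 0.81 ± 0.538 and 1.35 ± 0.273 at day 9 (SD, n = 5), and the wells of the days did not overlap in either. In CPM the days did not overlap in 5 members, FGF8, FGF9, SPRY2, SPRY4 and DUSP6, and in 36.7% of all genes.

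FGF2 was higher, as given above. FGF19 was at 3, 0 and 0 counts at day 90 and at 3 to 43 at day 9, a pooled ratio of day 9 to day 90 of 12.3 (exact 95% counting interval 4.09 to 60.9, adjusted p = 0.0394), with ranges that overlapped. Its call was lost with a lane term (adjusted p = 0.0628), without day 9 well 1 (0.0579) or well 2 (0.0982), and without day 90 well 4 (0.112) or well 5 (0.136). Marker levels also differed between days 9 and 90. The summed endoderm and liver level was 470 to 6100 CPM at day 9 and 8.74 to 128 CPM at day 90, the cardiomyocyte level 6100 to 14200 and 14900 to 50500 CPM, and the fibroblast and epicardium level 293 to 654 and 318 to 1800 CPM, with all 5 markers of each list above 3 counts at both days. Their part in the changes of the members was not tested.

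Late counts of FGF4, FGF17 and FGF19 were too low to rank. In the 17 libraries of days 11 to 90 they reached at most 14, 15 and 16 counts, and FGF19 and FGF4 were at or under 3 counts in 11 and 8 of them. Day 20 well 2, the shallowest library, held 14, 12 and 13 counts of FGF4, FGF17 and FGF19, or 1.92, 1.64 and 1.78 CPM. The other day 20 wells held 2 to 5 counts of each. All libraries of the lane of that well together held 3211, 2010 and 1343 counts of these genes, and the part of reads from other libraries of a lane was not tested.

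The feedback genes moved together between wells of the same day. Over the deviations of 44 libraries from their group means (log2 CPM), Pearson's r was 0.799 for SPRY2 with SPRY4, 0.782 for SPRY2 with DUSP6 and 0.701 for SPRY4 with DUSP6. These are descriptions over libraries that share a scaling, and the deviations are largest in the late groups. FGF8 correlated with SPRY2, SPRY4 and DUSP6 at 0.513, 0.472 and 0.312 in the same way, and FGF4 with FGF17 at 0.580, with few counts behind the late values. The ligands differed in sign. FGF2 was positive with SPRY2, SPRY4 and DUSP6 (0.0934, 0.259 and 0.227). FGF19 (-0.357, -0.226 and -0.376), FGF10 (-0.122, -0.197 and -0.2) and FGF9 (-0.229, -0.17 and -0.055) were negative with them, and FGF4 and FGF17 were mixed.

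At day 11 the wells fell into 2 sets. SPRY2 was 27.3 and 29.2 CPM in wells 1 and 2 and 69.1, 63.6 and 61.7 in wells 5, 6 and 7. SPRY4 was 11.7 and 8.12 against 31.3, 32.9 and 24.3 CPM, DUSP6 54.9 and 54.3 against 94.8, 93.0 and 95.02 CPM and FGF8 1.34 and 0.738 against 9.50, 9.39 and 6.18 CPM. ETV5, an ETS factor that ERK induces, was 22.8 and 20.5 against 70.6, 64.5 and 54.3 CPM. ETV4, another ETS factor, overlapped between the sets, at 7.68 and 5.49 against 9.86, 7.52 and 5.80 CPM. The 5 genes other than ETV4 were all lower in the same 2 wells. Other members did not all share this direction. FGF2 was higher there, at 12.07 and 12.08 against 7.43, 7.79 and 8.77 CPM. FGF4, FGF17 and FGF19 were also higher there, at 0 to 15 counts per well. FGF10 was lower, at 10.4 and 9.13 against 12.2, 11.2 and 13.95 CPM, and FGF9 overlapped. The share of all genes that separate these sets was not computed. Wells 1 and 2 had a summed endoderm and liver level of 4500 and 8580 CPM against 157 to 170 CPM, all 5 markers of that list being above 3 counts in the group, and a summed cardiomyocyte level of 7170 and 4660 CPM against 17500 to 18900 CPM. Their RNA integrity numbers were 8.6 and 8 against 9.2 to 9.5. The part of these differences in the feedback genes was not tested.

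Other late days had a single well apart. At day 14, well 6 had 77.5 CPM of SPRY2, 51.1 of SPRY4 and 95.2 of DUSP6, and wells 2 and 3 had 24.1 and 33.6, 11.6 and 9.34, and 41.9 and 52.7. Its endoderm and liver sum was 2400 CPM against 3830 and 4000. At day 20, well 3 was the lowest in all 3 genes, at 32.2, 5.62 and 27.4 CPM, with an endoderm and liver sum of 3880 CPM against 1750 and 921. At day 30, well 3 was the highest in all 3, at 54.2, 23.9 and 31.9 CPM, and it also had the highest endoderm and liver sum, 268 CPM against 39.1 and 20.1. The endoderm and liver sum thus ranked well 3 opposite to the feedback genes at day 20 and like them at day 30. The summed fibroblast and epicardium level ranked it like them at both, with 330 CPM against 1130 and 827 at day 20 and 1210 CPM against 682 and 486 at day 30. So did the summed endothelium level, with 73.2 CPM against 177 and 132, and 121 CPM against 46.3 and 29.5. At day 14 both sums were lowest in well 6, the highest in the feedback genes, at 338 and 179 CPM. At day 11 both were highest in wells 1 and 2, the lowest in those genes (470 and 802, and 361 and 484 CPM). A sum of neural markers (PAX6, SOX1, NES, TUBB3 and NEUROG1) ranked these wells like the feedback genes at days 11, 14 and 30. At day 20 it was 788 CPM in well 3, between 845 and 710. This neural sum was also 623 to 743 CPM in pluripotent wells, and NEUROG1 was not above 3 counts in any day 30 well. The part of these markers was not tested.

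**Figure D5:**
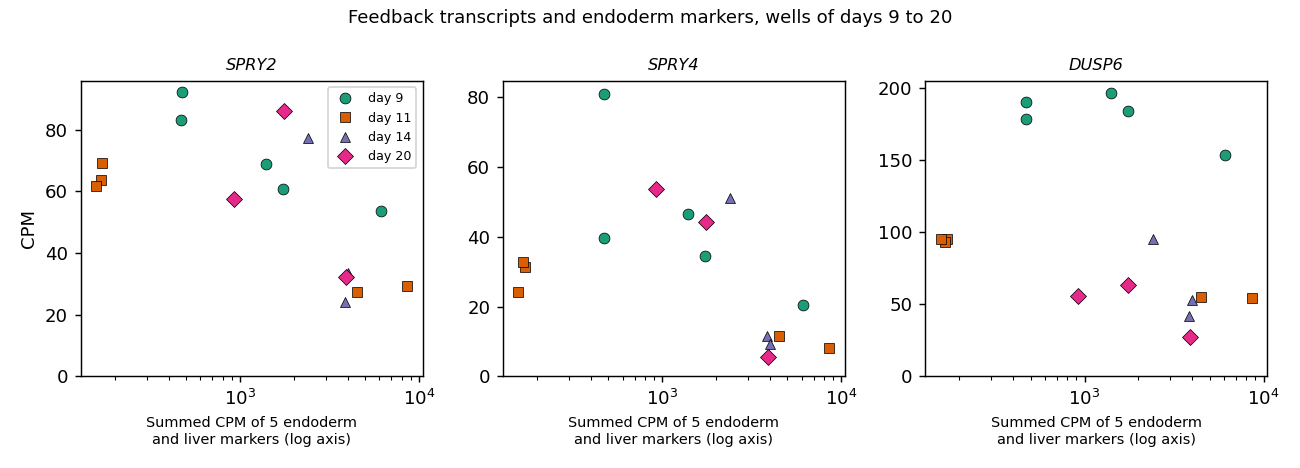
Level of SPRY2, SPRY4 and DUSP6 (CPM) in each well of days 9 to 20 against the summed CPM of the 5 endoderm and liver markers in that well, colours giving the day. At day 11 the wells at 4500 and 8580 CPM lie below those at 157 to 170 CPM in all 3 panels.

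Of the receptor genes, FGFR2 and FGFR3 were called lower at day 1, when 9 members were called higher. FGFR1, a receptor of early mesoderm, was the highest of the 4 in mean TPM in pluripotent wells (66.2, against 33.6 for FGFR2, 17.8 for FGFR4 and 7.07 for FGFR3). At day 1, 2 of the 7 receptor and coreceptor genes were lower than at day 0, as were 9.66% of all genes. They were FGFR2 (-2.11 ± 0.386, adjusted p = 9.06e-05) and FGFR3 (-2.33 ± 0.32, adjusted p = 9e-07). At day 3 both were higher again, with FGFR3 at 131 ± 9.12 CPM against 6.05 ± 0.761 at day 1 (SD, n = 3 each, 4.44 ± 0.347, adjusted p = 1.78e-12) and FGFR2 at 1.88 ± 0.383, adjusted p = 0.000221. FGFRL1, a receptor without a kinase, was also called (1.03, adjusted p = 1.01e-05). That made 3 of 7 genes higher, as were 11% of all genes. FGFRL1 fell just under the size for a call without day 1 well 1 (0.98, adjusted p = 0.000243), day 1 well 3 (1.00, adjusted p = 0.000203) or day 3 well 1 (0.96, adjusted p = 0.000159).

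KLB, the coreceptor through which FGF19 signals, was near the limit of detection to day 3 (0.114 ± 0.0743 CPM) and reached 9.16 ± 6.30 CPM at day 9 (6.98 ± 1.3, adjusted p = 2.62e-05 against day 0), when FGF19 itself was at 0.671 ± 0.517 CPM (SD, n = 3 at day 3 and 5 at day 9). From day 9 to day 90, 4 of 7 receptor genes were lower, FGFR2 (-1.63), FGFR3 (-2.93), FGFR4 (-4.78) and KLB (-6.05), with adjusted p of 0.000324, 8.98e-10, 2.71e-07 and 0.000179, at a step where 12% of all genes were lower. The endoderm and liver sum was 3.46 to 9.93 CPM at day 0, 470 to 6100 CPM at day 9 and 8.74 to 128 CPM at day 90, and its part in these receptor changes was not tested. FGFR1 was 150.1 ± 33.5 CPM at day 9 (SD, n = 5) and 104 ± 13.3 at day 90 (SD, n = 3, -0.53, adjusted p = 0.0583).

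The ETS factors ETV4 and ETV5, which carry the ERK signal to many genes, were high at different times. ETV4 was highest at day 1, at 104 ± 10.3 CPM against 31.8 ± 1.13 at day 0 (SD, n = 3 each, 1.72 ± 0.285, adjusted p = 2.18e-05), and fell by day 3 (-2.28 ± 0.291, adjusted p = 1.04e-07). ETV5 rose at that step (1.64 ± 0.445, adjusted p = 0.00448) to 68.8 ± 15.1 CPM. Both fell to day 5 (-2.02 and -2.31, adjusted p = 1.41e-07 and 2.55e-05). ETV1, ETV4 and ETV5 all rose to day 7 (1.88, 1.83 and 2.57, adjusted p = 3.38e-11, 2.77e-07 and 2.38e-06). They were 3 of the 10 genes of their list, at a step where 2.74% of all genes were higher. SPRY4 was called in the same direction as ETV5 at days 5 and 7, and DUSP6 in the opposite one at day 5. CCND1, the cyclin D1 gene, was 6.06-fold higher at day 1 and fell at day 3 (2.60 and -1.98, adjusted p = 1.61e-09 and 1.28e-07).

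From the pluripotent state to day 0, 4 of those 10 genes were higher beside DUSP6, at a step where 2.73% of all genes were. They were EGR1 and FOS, immediate early genes that ERK switches on within minutes (4.98 and 3.95, adjusted p = 7.15e-05 and 0.000478), PHLDA1 (1.92, adjusted p = 0.00836) and ETV5 (1.49, adjusted p = 0.0433). ETV5 was lost when any 1 of the 6 wells was left out (pluripotent wells 1, 2 or 3, day 0 wells 1, 2 or 3, adjusted p 0.0897 to 0.15), and PHLDA1 without pluripotent well 2 (1.88, adjusted p = 0.0518).

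Other feedback genes did not follow SPRY2, SPRY4 and DUSP6 as a block. At day 1, 3 of 10 were higher and 2 lower, as were 3.86% and 9.66% of all genes. DUSP4 (2.87 ± 0.55, adjusted p = 0.000165), IL17RD (2.31 ± 0.381, adjusted p = 1.96e-05) and DUSP5 (1.79, adjusted p = 0.0106) were higher, and SPRY3 (-3.14 ± 0.386, adjusted p = 1.06e-07) and DUSP9 (-2.48, adjusted p = 0.00016) lower. At day 5, IL17RD fell (-2.49, adjusted p = 3.36e-07) as the Sprouty members did, and DUSP9 rose (3.21, adjusted p = 8.2e-07) as DUSP6 did. From day 9 to day 90, 5 of 10 were lower, as were 12% of all genes. The 5 were led by DUSP9 (-4.85, adjusted p = 2.07e-10), SPRED3 (-2.06, adjusted p = 0.000364) and DUSP4 (-1.89, adjusted p = 0.00284). The kinases and adaptors of the pathway included few called genes. Of 21, FRS3, MAPK3 and GAB1 were called in any of the 13 comparisons, FRS3 and MAPK3 at day 3 against day 1 (1.26 and 1.24), FRS3 again at day 9 against day 0 (1.15) and GAB1 at day 90 against day 9 (2.19).

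Among the other FGF ligands, 8 of 11 could be tested. FGF18 was higher at day 1 (3.74 ± 0.607, adjusted p = 1.57e-05) and lower at day 3 (-3.87 ± 0.621, adjusted p = 7.01e-06), then higher again at day 9 than at day 7 (2.31 ± 0.45, adjusted p = 0.00235), reaching 79.9 ± 64.4 CPM at day 90 (SD, n = 3). At day 90 against day 9, 4 were higher and 1 lower, as were 11.9% and 12% of all genes. The 4 were led by FGF5 (7.17 ± 0.64, adjusted p = 1.97e-11), FGF1 (5.56 ± 0.581, adjusted p = 7.66e-10) and FGF7 (5.24 ± 0.427, adjusted p = 2.36e-12). The intracellular FGF homologous factors, which bind sodium channels and are not secreted, were all 4 higher in the same comparison. FGF12 rose the most, from 2.42 ± 0.886 CPM (SD, n = 5) to 219.9 ± 23.1 (SD, n = 3, 6.50 ± 0.433, adjusted p = 1.54e-14). FGF14, named after its values were seen and at 1.07 ± 0.419 CPM at day 90 (SD, n = 3), was not called without day 9 well 2 (1.62, adjusted p = 0.05) or day 90 well 4 (1.47, adjusted p = 0.101). Of 19 heparan sulfate and FLRT genes, which shape how FGFs reach their receptors, 12 were called at day 9 against day 0, 8 of them higher. Of all genes, 31.7% were called there, 17.1% higher. FLRT2 (4.65, adjusted p = 1.07e-10) and FLRT3 (4.09, adjusted p = 5.21e-09) rose the most.

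The genes most like each member over the 12 group means were taken from 7648 tested protein-coding genes whose mean reached 10 TPM in some group, by Pearson's r of log2 CPM, as a description. FGF17 was closest to the streak regulators EOMES and TBXT and to EOGT (0.963, 0.952 and 0.944). FGF2 was closest to C9orf135 (0.985), GNPTAB (0.981) and TBCD (0.979), and FGF4 to TUBB2A (0.971), NKX1-2 (0.966) and LAMP1 (0.966). FGF10 was closest to USP3 (0.972), TMEM123 (0.97) and WLS (0.955), and FGF9 to AP1M1 (0.97), SIRPA (0.967) and PCDH20 (0.964). For SPRY2 they were EPHA2 (0.943), WNT3 (0.934) and ZNF518B (0.919). SPRY4 was closest to ADAMTS19 (0.887), RGS16 (0.879) and FGF8 (0.868), and FGF8 was closest to TOP3A (0.903), SERINC5 (0.896) and AKAP17A (0.888). DUSP6 was closest to CCNL2 (0.979), SLC2A3 (0.976) and CYTH2 (0.961), and FGF19 to ZNF577 (0.967), MDN1 (0.956) and NELFCD (0.955). On log2(TPM + 1), the closest gene stayed the same for FGF17 (EOMES, 0.997) and SPRY2 (EPHA2, 0.960), and it changed for the other 8 members. For FGF2 it became SOX2 (0.988), and for FGF8 it became FST (0.872). Several genes named above were much less alike on that scale, among them TOP3A (0.712) and AKAP17A (0.627) with FGF8, ZNF577 (0.762) and NELFCD (0.645) with FGF19, and AP1M1 (0.742) with FGF9. With 12 points that share a time course, many genes reach such values.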

How the data were processed

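RNA of 44 wells was sequenced as 150 bp paired-end, stranded total RNA libraries, per the labels' protocols. The authors deposited expected counts per gene, of which 93.8% of values were whole, and TPM, a level per unit of transcript length. Cutadapt, STAR 2.5.2b, RSEM 1.2.31 and the hg38 genome are named per the submitters' processing notes, while the annotation and strand setting are not given in the sources used here. The deposited sample table gives the RNA integrity number, a quality score from the authors, and the sequencing lane. A sequencing batch is also given there and was not used here.

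Identifiers were matched to GENCODE 29 (56769 found, 3730 not). Expected counts were rounded and tested with edgeR 4.0.16 in R 4.3.3: filtering by group, scaling by the trimmed mean of M values (TMM), quasi-likelihood fit with 1 mean per group over 44 libraries, Benjamini-Hochberg adjustment over 22955 genes. CPM used the TMM-scaled library sizes. Where every library of a group had at most 3 counts, the pooled ratio is given with an exact (Clopper-Pearson) 95% interval that covers counting error only. TPM served to compare genes within a group, and between groups only in limma alternatives and where a TPM value is named. Alternatives were DESeq2 1.42.0, limma 3.58.1 on log2(TPM + 1) or log2(TPM + 0.1), other filters and scaling, a lane term, a replicate block, fits of single pairs of groups, and each well left out. Leaving out day 11 wells 1 and 2, or the 3 shallowest libraries, was chosen after seeing the data.

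On simulated data with known changes, the test at day 1 against day 0 (21630 genes) recovered 38%, 78%, 98% and 100% of 2-, 4-, 8- and 16-fold changes, with 8 unchanged genes called. At day 90 against day 9 (21610 genes) it recovered 26%, 84%, 98% and 90%, with 3. A true 2-fold change lies on the size limit of a call, which holds its recovery down. Changed genes were drawn above a minimum mean level and all other groups were simulated without change. The rates therefore need not hold for members with few counts. The members and gene lists were chosen with earlier results of these data known. Outside the members, the text names at most 3 called genes with the largest change per list and comparison, receptor and ETS genes in any comparison, and for each member the 3 genes with the highest correlation over group means.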

Additional observations from a re-analysis of the deposited data

Results flagged for a closer look

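In 4 of the 40 combinations of a member and a group of 5 wells, 1 well lay far from the other 4 by Dixon's criterion, which chance alone meets in about 1 group in 20. Day 7 well 10 accounted for 3 of them. It had the lowest FGF9 of that day, 0.45 CPM against 0.943 to 1.11 CPM, and the highest FGF10, 27.3 CPM against 9.98 to 12.7 CPM. It also had the highest SPRY2, 86.4 CPM against 55.7 to 61 CPM. The remaining one was FGF19 in day 5 well 3, at 3.21 CPM against 0.0744 to 0.852 CPM, the well on which the missing FGF19 call at day 5 rests.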

How the results depend on the processing

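Of the 46 changes of members called, 24 held their call under every alternative run, and of 803 alternative values 697 kept the call, 106 lost it and 0 changed direction. Losses came mainly with limma on TPM: 19 with log2(TPM + 1), 16 with log2(TPM + 0.1) and 21 without a filter, most often of DUSP6 and FGF9. Between TPM and counts the median gene moved by -0.81 (day 90 against day 30) to 0.54 (day 14 against day 11) on the log2 scale, and the cause of these losses was not tested. Leaving out wells cost 36 of 338 values.

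Counts of called members moved as follows. At day 0 against pluripotent (2 called), it was 4 with the replicate block, 4 with DESeq2, 6 with only those groups fitted, 1 with each form of limma, and 1 without any single well. At day 1 against day 0 (10 called) it was 6 with log2(TPM + 1), filtered or not. At day 3 against day 1 (5 called) it was 3 with unfiltered limma, 4 with the other forms of limma, 6 with only those groups fitted, which added FGF17, and 4 to 5 without single wells. At day 7 against day 5 (2 called) it was 1 with each form of limma. At day 9 against day 7 (1 called) it was 0 with RLE scaling, no filter, the stricter filter, a lane term, DESeq2 and each form of limma, 2 with the replicate block, and 0 to 1 without single wells. At day 11 against day 9 (2 called) it was 5 with the replicate block, which added FGF8, SPRY2 and SPRY4 as lower, 0 with each form of limma, and 1 without day 11 wells 1 and 2. At day 14 against day 11 (0 called) it was 1 with DESeq2, 1 without those wells, and 0 to 1 without single wells. At day 30 against day 20 (1 called) it was 0 with each form of limma, without the 3 shallowest libraries and with only those groups fitted, and 0 to 2 without single wells. At day 90 against day 30 (2 called) it was 4 with the replicate block and without the shallow libraries, 3 with DESeq2 and with no count filter, which both added SPRY4, 1 with log2(TPM + 1), 0 with unfiltered limma or only those groups fitted, and 1 to 4 without single wells. At day 90 against day 9 (6 called) it was 3 with unfiltered limma. Day 5 against day 3 gave 6 to 8 without single wells, and day 9 against day 0 (8 called) gave 6 with log2(TPM + 1), filtered or not, 7 with log2(TPM + 0.1) and 8 otherwise.

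Among comparisons with 3 or more pairs, wells with the same number had a positive r in every pair only at day 9 against day 7 (0.0546 to 0.454). There 4 of 5 wells correlated best with their own number. Day 20 against day 14 had only 2 pairs, with r of 0.553 and 0.611. Since the numbers did not go together throughout, they are not taken as pairs, and the replicate block is an alternative. The replicate block lost 1 of the 46 calls, FGF19 at day 90 against day 9 (-3.06, adjusted p = 0.0807, edgeR). Days 30 and 90 share no numbers. Depth limits the late values of FGF4, FGF8, FGF17 and FGF19, which lie at a few counts per library.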
